A study of Mus musculus with 29 samples.

Results

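The 36 genes described here encode the machinery that brings newly made proteins into the endoplasmic reticulum (ER) and then attaches and trims their N-linked sugar chains. They were taken by name and not by a measured value, although earlier results of these data were known when they were chosen. A gene's level is that of a probe set annotated to this gene and no other. Of the 36 genes, 34 had such a probe set, against 12394 genes in the whole series. All 34 passed the filter on dim genes and were tested, as were 7154 genes of the series. No probe set of its own was found for Srp72, which is not analysed here, and Sec61g is covered only by a probe set shared with Gm11575 and Gm10177. The 34 genes fall into signal recognition (5 measured of 6), the translocon (8 of 9), signal peptidase (5 of 5) and N-glycosylation (16 of 16).

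A protein that is to be secreted or placed in a membrane carries a signal peptide, which the signal recognition particle (SRP) binds as it leaves the ribosome. The particle docks on its receptor in the ER membrane, the chain passes through the Sec61 channel, and signal peptidase cuts the signal peptide off. The oligosaccharyltransferase (OST) moves a sugar tree, built beforehand on the lipid dolichol, onto asparagines of the chain, and enzymes of the ER and the Golgi then trim and rebuild it. Macrophages use this route for their lysosomal proteases, surface receptors and secreted proteins.

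RNA came from macrophages grown from bone marrow of wild-type mice of the strain C57BL/6, 8 weeks of age. All cells were kept for 7 days in Teflon bags with CSF-1 at 10 ng/ml, the growth factor that drives macrophage differentiation. They were then held for 24 h with CSF-1 alone (unstimulated, 8 arrays) or with CSF-1 and a cytokine: IL-4 (5 arrays), IL-6 (5 arrays) or IL-10 (3 arrays). The combinations were IL-4 plus IL-6 (5 arrays) and, with 3 arrays, IL-4 plus IL-10, and each cytokine was at 10 ng/ml. IL-4 signals through STAT6, IL-6 and IL-10 through STAT3, and the design asks what each does alone and what the combinations do. Values are log2 intensities from Affymetrix arrays, made by the authors with RMA, and a difference of 1 on this scale is a doubling. The labels do not say whether arrays of a group come from separate mice or cultures, so p-values measure the spread between arrays, which may be technical, and the number of arrays limits the precision. In bulk RNA, fewer cells of a type and less RNA per cell cannot be told apart.

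The groups carried the readouts of their cytokines. Socs3, a STAT3 target, read 11.35 to 11.51 with IL-6 and 11.82 to 12.36 with IL-10 against 6.12 to 6.99 without cytokine, and Arg1, a STAT6 target, read 11.39 to 11.86 with IL-4 against 3.63 to 4.04. All 8 macrophage markers listed were above the filter in every group, and their summed linear intensity was 90435 to 94421 unstimulated, 69931 to 72182 with IL-4, 96767 to 100280 with IL-6, 95269 to 99070 with IL-10, 66345 to 69039 with IL-4 plus IL-6 and 66709 to 71862 with IL-4 plus IL-10. Of 7 neutrophil markers, 5 were above the filter in every group, with sums of 7067 to 11184 unstimulated, 5095 to 6685 with IL-4, 5961 to 8241 with IL-6, 7647 to 11077 with IL-10, 4315 to 5714 with IL-4 plus IL-6 and 5010 to 7700 with IL-4 plus IL-10. Of 10 B and plasma cell markers, 7 were measured, and their sums were 2291 to 8271 unstimulated, 2400 to 6133 with IL-4, 4379 to 9868 with IL-6, 2066 to 2555 with IL-10, 2832 to 8090 with IL-4 plus IL-6 and 1396 to 1547 with IL-4 plus IL-10. No marker of T and NK cells (4 measured), of mast cells, basophils and eosinophils (6) or of fibroblasts (5) was above the filter. Of 5 erythroid and megakaryocyte markers, 3 were measured and 2 were above the filter, with sums of 2527 to 3674 unstimulated, 1579 to 1854 with IL-4, 5852 to 7939 with IL-6, 7180 to 7979 with IL-10, 3196 to 3776 with IL-4 plus IL-6 and 3690 to 4097 with IL-4 plus IL-10. The 3′ minus 5′ log2 difference of Actb, a sign of RNA quality, was 0.364 ± 0.0741 (SD, n = 8) unstimulated, lowest with IL-6 (0.248 ± 0.0194, n = 5) and highest with IL-4 plus IL-10 (0.419 ± 0.0364, n = 3). The part of these markers and of RNA quality in the results was not tested.

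The replicate numbers point to 2 sets of arrays, which the labels do not state. Unstimulated replicates 6 to 8 were taken with both groups that received IL-10, and unstimulated replicates 1 to 5 with the rest. Between these 2 parts of the unstimulated group, 6 of the 34 genes were higher in replicates 6 to 8 (Srp9, Srp19, Sec61a1, Sec61b, Ssr2 and Ssr4, by 0.16 to 0.27), where 8.96% of all genes tested were, and 2 were lower (Dpagt1 and Man1a), where 5.48% were. Counts of the 34 genes called within 1 set, where they exist, are therefore given beside those over all arrays. For single genes, values within 1 set are given for some results only. Other values against unstimulated cells rest on unstimulated arrays of both sets.

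Most of the 34 genes were higher with either combination, and fewer were with a single cytokine. With IL-4 plus IL-6, 29 rose and 4 fell against unstimulated cells, where 35.0% of all genes tested rose and 38.8% fell (73.8% in either direction). The other combination, with IL-10, had 30 that rose and 2 that fell, against 38.1% and 34.0% of all genes (72.1% in either direction). The median difference of the 34 genes was 0.51 with IL-4 plus IL-6 and 0.48 with IL-4 plus IL-10, while that of all genes lay within 0.04 of 0 in every comparison. With IL-4 alone, 26 rose and 3 fell (27.6% and 31.9% of all genes, 59.5% in either direction), with a median of 0.15. With IL-6 alone, 21 rose and Srp14 fell (16.1% and 23.1% of all genes, 39.3% in either direction), with a median of 0.13. With IL-10 alone, 14 rose and 0 fell (18.3% and 19.5% of all genes, 37.8% in either direction), with a median of 0.09 and 6 of the 34 genes below 0 without passing the test. These 5 comparisons share the unstimulated arrays, so they are not independent of each other. How many of all genes had groups without overlap was not counted, so a lack of overlap below only describes the gene named.

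Within 1 set of arrays the combinations kept most of these counts, and IL-10 alone did not. With IL-4 plus IL-6, 29 rose and 4 fell within the set (36.1% and 37.2% of all genes), and with IL-4 plus IL-10, 27 rose and 2 fell (29.8% and 29.9%). With IL-4, 25 rose and 2 fell (29.5%), and with IL-6, 22 rose and 1 fell (17.2%). With IL-10, 3 rose within the set, namely Man1a, Gmppb and Mgat2, where 8.01% of all genes did, and the median difference of the 34 genes there was 0.12. That comparison rests on 3 against 3 arrays.

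**Figure D1:**
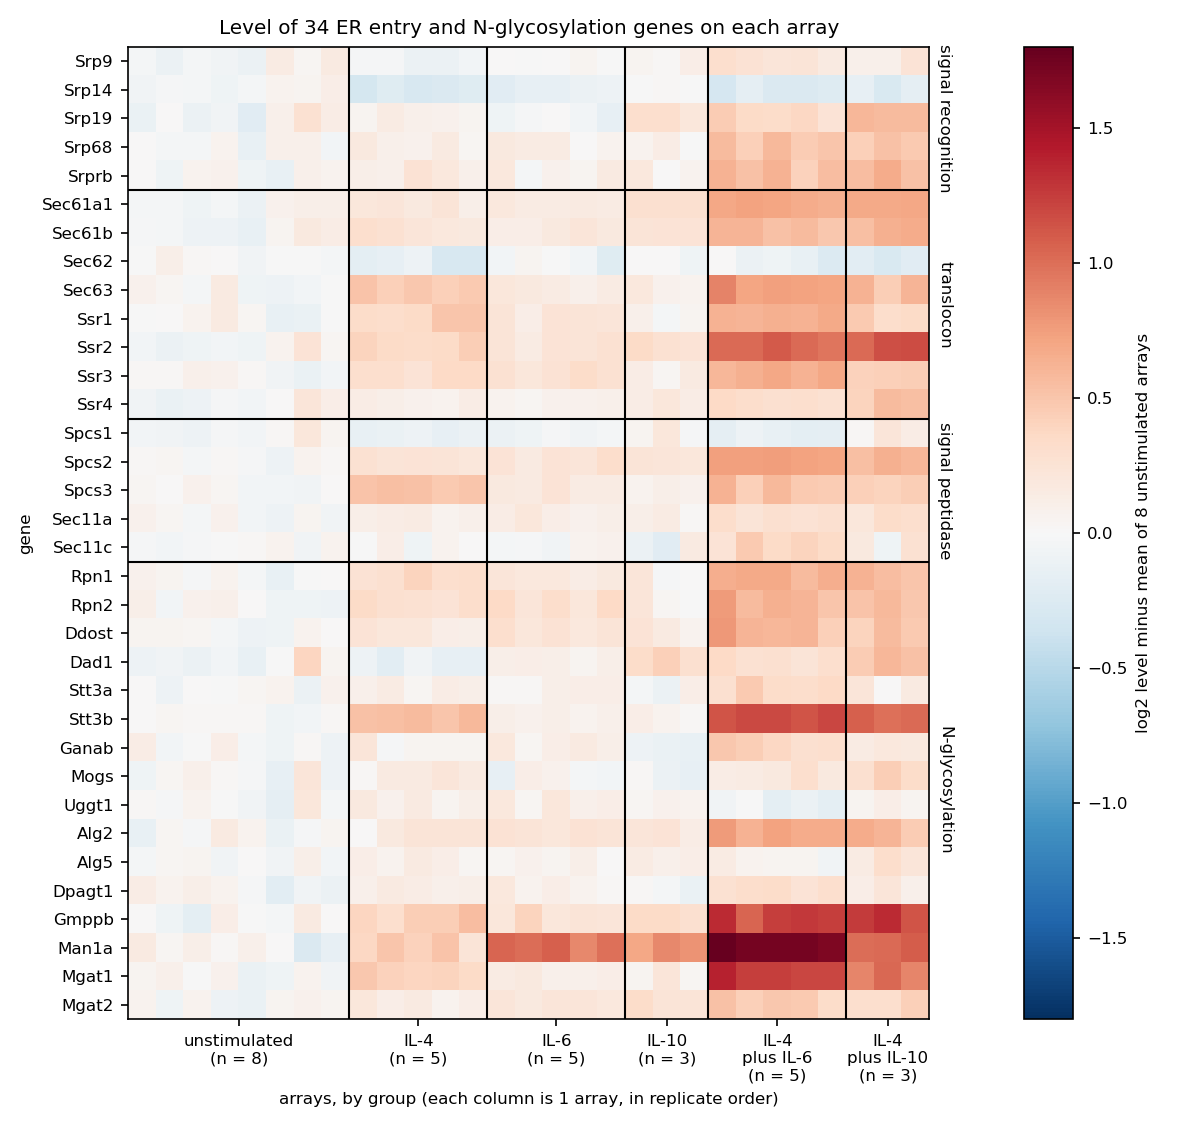
Log2 level of the 34 genes (rows, by role) on each of the 29 arrays (columns, by group), minus the mean of the 8 unstimulated arrays for that gene. Red is higher and blue is lower. Most rows are red on the arrays of both combinations, Srp14 and most cells of Sec62 are blue there, and Man1a is red with each cytokine.

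Added to 1 cytokine, the other moved most of the 34 genes further. IL-4 plus IL-6 was higher than IL-4 for 27 and lower for 1 (29.4% and 31.2% of all genes, 60.5% in either direction), and higher than IL-6 for 29 and lower for 2 (34.0% and 32.9%, 66.9% in either direction). IL-4 plus IL-10 was higher than IL-4 for 24 and lower for 0 (32.7% and 24.6%, 57.3% in either direction), and higher than IL-10 for 24 and lower for 2 (31.8% and 28.1%, 59.9% in either direction). The median differences were 0.32, 0.36, 0.24 and 0.33 in this order. The IL-4 arrays belong to the first set and the IL-4 plus IL-10 arrays to the second, so the comparison of these groups crosses the sets and has no value within 1 set. With a term for the set, 20 of the 34 genes were higher and 0 lower, where 17.0% and 16.1% of all genes were. Leaving out 1 array ended 3 calls of IL-4 plus IL-10 against IL-4 (Ssr3, Mogs and Alg5, adjusted p up to 0.184). Against IL-10 it ended 2 (Dpagt1 and Man1a, up to 0.0594).

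Calls of the smallest size lay near the threshold, and several were lost when any of several arrays was left out. Leaving out 1 array ended the call of 7 genes with IL-4 (Srp68, Ssr4, Stt3a, Mogs, Uggt1, Alg5 and Dpagt1), with adjusted p up to 0.0855 without it. It ended 4 calls with IL-6 (Srp68, Ganab, Uggt1 and Mgat1, up to 0.11) and 4 with IL-10 (Ssr3, Ssr4, Ddost and Alg5, up to 0.193). It ended 2 calls with IL-4 plus IL-6 (Sec62 and Uggt1, up to 0.134) and 4 with IL-4 plus IL-10 (Srp9, Spcs1, Stt3a and Dpagt1, up to 0.23). All of these differences were between 0.10 and 0.16 in size. The arrays whose omission ended a call were, for IL-4, unstimulated replicate 1, 2, 3, 5, 6, 7 or 8, IL-4 replicate 1, 2, 3, 4 or 5. For IL-6 they were unstimulated replicate 2, 3, 5, 6 or 8, IL-6 replicate 1, 2, 3 or 4, and for IL-10 unstimulated replicate 4, 6, 7 or 8, IL-10 replicate 1, 2 or 3. For the combination with IL-6 they were unstimulated replicate 1, 2, 3 or 7, IL-4 plus IL-6 replicate 3, 4 or 5, and for that with IL-10 unstimulated replicate 3, IL-4 plus IL-10 replicate 1, 2 or 3.

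Replicate numbers paired the arrays of the unstimulated, IL-4 and IL-6 groups and the first combination, and they paired IL-10 with IL-4 plus IL-10. Numbers 6 to 8 occur only on unstimulated arrays, so with the number as a block these arrays drop out of the comparisons. Values against unstimulated cells then rest on replicates 1 to 5 of that group. What the pairing adds to this change of arrays was not tested. In that fit, Srp19 was called higher with IL-4 (0.18, adjusted p = 5.52e-05). Ssr4 (0.13, adjusted p = 0.0022) and Dad1 (0.18, adjusted p = 1.91e-04) were called higher with IL-6, where Ganab was lost (0.09, adjusted p = 0.0684). IL-4 lost Spcs1 and Dpagt1 in that fit. Sec62 was then called higher when IL-6 was added to IL-4 (0.09, adjusted p = 0.0362), and Spcs1 lower when IL-4 was added to IL-6 (-0.08, adjusted p = 0.0407). Dad1 and Alg5 were called higher when IL-4 was added to IL-10 (0.18 and 0.11, adjusted p = 0.00137 and 0.0485). This fit put equal numbers of both sets into the same block, although the numbers do not pair arrays across sets. The calls of Dad1 and Alg5 rest on that block. No call against unstimulated cells differed for the first combination.

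Promoter sequences give the context of genes that moved differently, and 5 are shown. RefSeq windows of GRCm38.p6 that run from 250 bases before to 50 after a gene's start were found for 27 of the 36 genes, 30 windows in all. Stt3a and Stt3b are the catalytic OST paralogs that changed unequally, Man1a rose most of the 34 genes with IL-4 plus IL-6, and Sec63 (which rose) and Spcs1 (which fell with IL-4 plus IL-6) each hold 4 copies of CCACG. Each window is printed 5′ to 3′ on the gene's strand, with CCAAT and CCACG, on either strand, in capitals (reverse matches read ATTGG and CGTGG).
Stt3a: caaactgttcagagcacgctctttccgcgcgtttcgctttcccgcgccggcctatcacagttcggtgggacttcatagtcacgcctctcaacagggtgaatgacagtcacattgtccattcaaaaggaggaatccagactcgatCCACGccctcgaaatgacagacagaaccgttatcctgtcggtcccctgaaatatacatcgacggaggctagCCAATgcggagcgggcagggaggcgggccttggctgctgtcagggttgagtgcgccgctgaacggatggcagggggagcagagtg
Stt3b: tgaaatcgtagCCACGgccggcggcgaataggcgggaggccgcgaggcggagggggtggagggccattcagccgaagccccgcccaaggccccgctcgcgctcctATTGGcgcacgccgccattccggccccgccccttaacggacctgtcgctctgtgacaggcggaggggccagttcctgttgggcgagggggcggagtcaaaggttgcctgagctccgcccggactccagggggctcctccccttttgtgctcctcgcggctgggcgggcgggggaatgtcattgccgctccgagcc
Man1a: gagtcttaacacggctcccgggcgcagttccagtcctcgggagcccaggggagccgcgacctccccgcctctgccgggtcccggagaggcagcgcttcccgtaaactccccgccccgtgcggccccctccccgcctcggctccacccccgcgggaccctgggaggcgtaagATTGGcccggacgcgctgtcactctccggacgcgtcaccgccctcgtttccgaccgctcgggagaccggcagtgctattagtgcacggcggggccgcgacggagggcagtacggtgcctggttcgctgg
Sec63: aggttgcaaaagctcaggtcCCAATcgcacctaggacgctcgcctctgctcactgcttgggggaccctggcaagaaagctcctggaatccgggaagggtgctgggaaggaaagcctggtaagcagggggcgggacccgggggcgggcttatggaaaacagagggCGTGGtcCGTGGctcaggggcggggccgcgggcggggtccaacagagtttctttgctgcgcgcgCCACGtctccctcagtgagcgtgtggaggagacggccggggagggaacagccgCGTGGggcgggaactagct
Spcs1: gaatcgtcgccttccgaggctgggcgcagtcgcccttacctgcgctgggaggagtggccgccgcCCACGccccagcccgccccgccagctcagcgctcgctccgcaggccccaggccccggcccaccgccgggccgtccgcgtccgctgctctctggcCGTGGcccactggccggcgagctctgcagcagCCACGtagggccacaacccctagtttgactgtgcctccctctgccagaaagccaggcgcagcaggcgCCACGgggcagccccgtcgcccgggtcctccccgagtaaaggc
They lie at chr9:36767573-36767872 (minus strand), chr9:115310419-115310718 (minus), chr10:54075688-54075987 (minus), chr10:42761246-42761545 (plus) and chr14:31001617-31001916 (minus).

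Motifs that factors of the unfolded protein response are known to bind were searched on both strands of all windows. The ER stress response element ERSE, its variant ERSE-II, the element UPRE (TGACGTGG) and the cyclic AMP element CRE (TGACGTCA) were in 0 of the 30 windows, where 0.119%, 0.0365%, 0.676% and 1.79% of all 32851 mouse windows hold them. The short parts of ERSE were searched after that result. CCAAT was in 14 of 30 windows (46.7%, against 37.4% of all windows) and CCACG in 16 (53.3% against 32.8%). The 30 windows had a median GC content of 62.3%, and all windows 52.7%. A match is a description of letters, and the absence of one says only that these letters are not in this window.

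Signal recognition genes other than Srp14 rose with both combinations. Of the 5 measured, 4 rose and 1 fell with IL-4 plus IL-6 (median 0.35) and likewise with IL-4 plus IL-10 (median 0.47). With IL-4, 2 rose and 1 fell, with IL-6 1 rose and 1 fell, and with IL-10 1 rose. Called in either direction, these are 60% of the 5 genes with IL-4, 40% with IL-6 and 20% with IL-10, beside 59.5%, 39.3% and 37.8% of all genes. Srprb, the receptor subunit that sits in the ER membrane, ranged from 7.92 to 8.16 (median 8.09) on the 8 unstimulated arrays. It read 8.69, 8.59, 8.68, 8.48 and 8.62 with IL-4 plus IL-6 and 8.61, 8.72 and 8.58 with IL-4 plus IL-10, against 8.17, 8.15, 8.32, 8.26 and 8.16 with IL-4. Both combinations lay above every unstimulated array, with differences of 0.55 (SE 0.0487, adjusted p = 5.45e-11) and 0.58 (SE 0.0579, adjusted p = 9.92e-10), while IL-4 alone gave 0.15 (SE 0.0487, adjusted p = 0.00915) and overlapped the unstimulated arrays, as did IL-6 (8.03 to 8.24) and IL-10 (8.07 to 8.25). The 2 other probe sets of Srprb alone gave 0.23 and 0.54 with IL-4 plus IL-6. With IL-4 plus IL-10 they gave 0.29 and 0.59, and all of these were called higher. A further probe set, which Srprb shares with the transferrin gene Trf, read lower with IL-4 plus IL-6. It read 11.68 ± 0.30 (SD, n = 8) unstimulated and 10.83 ± 0.06 (n = 5) with that combination, and its signal cannot be assigned to either gene.

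Srp68, which binds the particle's RNA, changed in the same range. It read 9.31, 9.17, 9.33, 9.20 and 9.25 with IL-4 plus IL-6 and 9.17, 9.27 and 9.21 with IL-4 plus IL-10, against 8.61 to 8.84 (median 8.73) unstimulated. The differences were 0.51 (SE 0.0408, adjusted p = 7.33e-12) and 0.47 (SE 0.0484, adjusted p = 1.44e-09), with no overlap of the groups. The values with IL-4 and IL-6 alone (0.11 and 0.11) overlapped the unstimulated arrays, with levels of 8.78 to 8.92 and 8.76 to 8.92, and IL-10 arrays read 8.74 to 8.87.

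Srp19, which helps the particle to assemble, was the member of this group with the largest value for IL-10. It read 10.76, 10.74 and 10.65 with IL-10 and 11.04, 11.01 and 11.02 with IL-4 plus IL-10, against 10.24 to 10.73 (median 10.41) unstimulated. The IL-10 arrays overlapped the upper unstimulated arrays (0.27, SE 0.0660, adjusted p = 0.00185), and against unstimulated replicates 6 to 8 alone the difference was 0.10 (adjusted p = 0.394). The IL-4 arrays read 10.50 to 10.59, the IL-6 arrays 10.30 to 10.45 and those with both 10.69 to 10.90. With IL-4 plus IL-10 the difference was 0.58 (SE 0.0660, adjusted p = 1.25e-08) over all arrays and 0.41 (adjusted p = 6.56e-04) within the set. Srp9, the partner of Srp14, rose by 0.23 (SE 0.0419, adjusted p = 1.41e-05) with IL-4 plus IL-6, whereas within the set the call with IL-4 plus IL-10 (0.14) was lost.

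Srp14, which with Srp9 slows translation while the particle is bound, fell. Its unstimulated arrays ranged from 12.16 to 12.35 (median 12.20), and it read 11.91, 12.005, 11.94, 11.97 and 12.01 with IL-4 and 11.92, 12.07, 11.97, 11.96 and 11.99 with IL-4 plus IL-6. All arrays of these groups lay below every unstimulated array, and it fell by 0.26 (SE 0.0344, adjusted p = 2.52e-07) and by 0.24 (SE 0.0344, adjusted p = 3.69e-07). With IL-6 it fell by 0.14 (SE 0.0344, adjusted p = 0.00216) and with IL-4 plus IL-10 by 0.19 (SE 0.0409, adjusted p = 1.45e-04), while IL-10 alone gave 12.22, 12.24 and 12.22, within the unstimulated range. All 3 other probe sets of Srp14 were called lower with IL-4 (-0.28 to -0.27) and with IL-4 plus IL-6 (-0.23 to -0.15). With IL-4 plus IL-10, 1 of the 3 was (-0.25) and 2 were not (-0.03 and 0.00). With IL-6, 1 of the 3 was (-0.11) and 2 were not (-0.13 and -0.07).

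Most translocon genes rose with IL-4 and with the combinations, and Sec62 fell. Of the 8 measured, 7 rose and 1 fell with IL-4 (median 0.27), with IL-4 plus IL-6 (median 0.64) and with IL-4 plus IL-10 (median 0.53), whereas 6 rose with IL-6 (median 0.16) and 5 with IL-10 (median 0.13). Called in either direction, these are 100%, 100%, 100%, 75% and 62.5% of the 8 genes in this order. Of all genes, 59.5%, 73.8%, 72.1%, 39.3% and 37.8% were called. Sec61a1, the pore of the channel, ranged from 11.41 to 11.63 (median 11.48) unstimulated. It read 12.22, 12.24, 12.23, 12.19 and 12.16 with IL-4 plus IL-6 and 12.21, 12.20 and 12.21 with IL-4 plus IL-10, against 11.72, 11.73, 11.70, 11.75 and 11.62 with IL-4, 11.71, 11.66, 11.67, 11.68 and 11.66 with IL-6 and 11.80, 11.81 and 11.81 with IL-10. The combinations were 1.62-fold and 1.61-fold above unstimulated cells, with differences of 0.69 (SE 0.0338, adjusted p = 1.17e-16) and 0.69 (SE 0.0401, adjusted p = 1.55e-14). They overlapped each other and no other group. Within the set, the IL-10 value was 0.19 (adjusted p = 0.053). The 5 other probe sets of Sec61a1 were all called higher with IL-4 plus IL-6 (0.42 to 1.08), but with IL-10 they ran from -0.26 to 0.34, 1 of them called, and with IL-4 plus IL-10 from 0.22 to 1.02, 4 of them called.

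Sec61b, a small subunit of the channel, rose with each cytokine, by 0.23 with IL-4, 0.16 with IL-6 and 0.24 with IL-10, and by 0.56 and 0.62 with the combinations. The IL-10 call was lost within the set. The probe set that Sec61g shares with 2 other gene names read 11.08 ± 0.07 (SD, n = 8) unstimulated, 11.62 ± 0.09 (n = 5) with IL-4 plus IL-6 and 11.62 ± 0.08 (n = 3) with IL-4 plus IL-10. It was not tested.

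The 4 subunits of the TRAP complex, which sits beside the channel and helps chains to enter, rose to unequal extents. Ssr2 ranged from 9.34 to 9.70 (median 9.39) unstimulated, with the highest value on replicate 7. It read 10.46, 10.47, 10.55, 10.46 and 10.41 with IL-4 plus IL-6 and 10.46, 10.60 and 10.62 with IL-4 plus IL-10, against 9.84, 9.79, 9.78, 9.79 and 9.88 with IL-4, 9.67, 9.59, 9.69, 9.68 and 9.71 with IL-6 and 9.79, 9.72 and 9.70 with IL-10. Both combinations lay at least 0.5 above every array of the other groups, 2.04-fold and 2.17-fold above unstimulated cells in the mean, with differences of 1.03 (SE 0.0456, adjusted p = 1.33e-17) and 1.12 (SE 0.0541, adjusted p = 2.46e-16). Within the set, the IL-10 value of Ssr2 was 0.18 (adjusted p = 0.161).

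The other 3 TRAP subunits changed less with both combinations. Ssr1 ranged from 11.39 to 11.69 (median 11.53) unstimulated, 11.84 to 12.03 with IL-4, 11.64 to 11.77 with IL-6, 11.49 to 11.63 with IL-10, 12.14 to 12.20 with IL-4 plus IL-6 and 11.84 to 11.99 with IL-4 plus IL-10. Ssr3 ranged from 11.83 to 12.04 (median 11.97) unstimulated, 12.19 to 12.31 with IL-4, 12.15 to 12.27 with IL-6, 11.98 to 12.10 with IL-10, 12.55 to 12.64 with IL-4 plus IL-6 and 12.37 to 12.40 with IL-4 plus IL-10. With IL-4 plus IL-6, Ssr1 rose by 0.64, Ssr3 by 0.65 and Ssr4 by 0.31, and with IL-4 plus IL-10 by 0.38, 0.43 and 0.50. All 6 of these differences were called with no overlap of the groups, and the share of all genes without overlap was not counted. For Ssr1, adding IL-10 to IL-4 gave -0.02 (SE 0.0564, adjusted p = 0.771), which did not pass the test, whereas adding IL-6 gave 0.24 (SE 0.0488, adjusted p = 1.17e-04).

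Sec63, which brings the chaperone Hspa5 to the channel, rose and its partner Sec62 fell with IL-4. Sec63 ranged from 9.16 to 9.40 (median 9.22) unstimulated and read 9.76, 9.68, 9.73, 9.68 and 9.72 with IL-4, 10.15, 9.96, 9.99, 9.98 and 9.95 with IL-4 plus IL-6 and 9.88, 9.69 and 9.86 with IL-4 plus IL-10. These groups lay above every unstimulated array, with differences of 0.47 (SE 0.0419, adjusted p = 2.11e-10), 0.76 (SE 0.0419, adjusted p = 2.18e-15) and 0.56 (SE 0.0498, adjusted p = 1.05e-10). The IL-6 arrays read 9.34 to 9.45 and the IL-10 arrays 9.31 to 9.44, both overlapping the unstimulated ones. All 3 other probe sets of Sec63 were called higher with IL-4 and with IL-4 plus IL-6, but with IL-4 plus IL-10 they gave 0.65 and 0.23, both called, and 0.07, not called. When IL-6 was added to IL-4, 1 of them was called lower (-0.09), against 0.29 for the one used. When IL-10 was added to IL-4, another was called lower (-0.47) and the third higher (0.15), where the one used gave 0.09 and did not pass.

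Sec62, by contrast, ranged from 10.75 to 10.92 (median 10.80) unstimulated and read 10.64, 10.67, 10.71, 10.53 and 10.53 with IL-4 and 10.62, 10.54 and 10.61 with IL-4 plus IL-10. All arrays of both groups lay below the unstimulated ones, and it fell by 0.20 (SE 0.0439, adjusted p = 3.58e-04) and by 0.22 (SE 0.0521, adjusted p = 4.37e-04). With IL-4 plus IL-6 it read 10.82, 10.71, 10.73, 10.68 and 10.56, overlapped the unstimulated arrays and fell by 0.11 (SE 0.0439, adjusted p = 0.0267), a call that was lost without unstimulated replicate 2 or without replicate 4 or 5 of that group (-0.10 to -0.07). Of 2 other probe sets that were tested, 1 was called lower with IL-4 (-0.28) and the other was not (-0.02), and neither was called with IL-4 plus IL-10 (-0.02 and -0.16).

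Most signal peptidase genes rose with the combinations. Of 5, 4 rose and 1 fell with IL-4 plus IL-6 (median 0.36), 4 rose with IL-4 plus IL-10 (median 0.28), 3 rose and 1 fell with IL-4, 3 rose with IL-6 and 1 with IL-10. Called in either direction, these are 100%, 80%, 80%, 60% and 20% of the 5 genes in this order. Of all genes, 73.8%, 72.1%, 59.5%, 39.3% and 37.8% were called. Spcs2, an accessory subunit, ranged from 11.39 to 11.55 (median 11.50) unstimulated and overlapped between the 3 single cytokines, with 11.75, 11.72, 11.74, 11.72 and 11.69 with IL-4, 11.73, 11.65, 11.73, 11.70 and 11.80 with IL-6 and 11.71, 11.70 and 11.69 with IL-10. In the presence of IL-4 plus IL-6 it read 12.23, 12.22, 12.24, 12.21 and 12.19 and with IL-4 plus IL-10 12.02, 12.12 and 12.08. Every cytokine group lay above every unstimulated array, and the combinations lay above every single cytokine array. Against unstimulated cells they gave 0.73 (SE 0.0285, adjusted p = 6.03e-19) and 0.59 (SE 0.0338, adjusted p = 9.28e-15). Within the set, the IL-10 value was 0.22 (adjusted p = 0.0512).

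Spcs3, another accessory subunit, had a similar difference with IL-4 alone and with IL-4 plus IL-6. It ranged from 10.83 to 10.96 (median 10.89) unstimulated and read 11.39, 11.42, 11.42, 11.35 and 11.38 with IL-4, 11.51, 11.31, 11.47, 11.36 and 11.34 with IL-4 plus IL-6 and 11.31, 11.29 and 11.33 with IL-4 plus IL-10. The differences from unstimulated cells were 0.51 (SE 0.0323, adjusted p = 1.47e-13), 0.51 (SE 0.0323, adjusted p = 3.82e-14) and 0.42 (SE 0.0383, adjusted p = 1.64e-10). Adding IL-6 to IL-4 gave 0.01 (SE 0.0358, adjusted p = 0.896) and adding IL-10 gave -0.09 (SE 0.0413, adjusted p = 0.0792), neither past the test, although with IL-6 alone (11.03 to 11.13) it rose by 0.18 (SE 0.0323, adjusted p = 6.53e-05). The IL-10 arrays, at 10.97 ± 0.03 (SD, n = 3), overlapped the unstimulated ones.

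Spcs1, also an accessory subunit, fell with IL-4 plus IL-6 and not with IL-4 plus IL-10. It ranged from 12.37 to 12.67 (median 12.42) unstimulated, highest on replicate 7, and read 12.33, 12.34, 12.37, 12.30 and 12.36 with IL-4, 12.30, 12.37, 12.33, 12.28 and 12.30 with IL-4 plus IL-6 and 12.48, 12.67 and 12.59 with IL-4 plus IL-10. It fell by 0.14 (SE 0.0425, adjusted p = 0.00354) with IL-4 plus IL-6 and by 0.12 (SE 0.0425, adjusted p = 0.0165) with IL-4. The IL-4 call was lost with the replicate number as a block (-0.07, adjusted p = 0.116), which leaves out unstimulated replicates 6 to 8. With IL-4 plus IL-10 it rose by 0.12 (SE 0.0504, adjusted p = 0.0296), a call lost without unstimulated replicate 3 or without replicate 2 or 3 of that group (0.08 to 0.12), and within the set. Another probe set of Spcs1 gave -0.03 with IL-4 and -0.04 with IL-4 plus IL-6, neither called, and 0.15, called higher, with IL-4 plus IL-10.

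Sec11a and Sec11c are alternative catalytic subunits of signal peptidase. Sec11a ranged from 11.42 to 11.60 (median 11.51) unstimulated, 11.58 to 11.66 with IL-4, 11.59 to 11.72 with IL-6, 11.53 to 11.66 with IL-10, 11.74 to 11.84 with IL-4 plus IL-6 and 11.72 to 11.84 with IL-4 plus IL-10. It rose by 0.11 with IL-4, by 0.13 with IL-6 and by 0.28 with each combination, and the difference with IL-10 was 0.09 and did not pass. Sec11c read 12.09, 12.31, 12.19, 12.25 and 12.19 with IL-4 plus IL-6, above all unstimulated arrays, which ran from 11.79 to 11.90 (median 11.83), and rose by 0.36 (SE 0.0544, adjusted p = 1.07e-06). Its other differences from unstimulated cells (-0.05 to 0.13) did not pass the test, and its arrays ran from 11.77 to 11.97 with IL-4, 11.78 to 11.93 with IL-6, 11.64 to 12.01 with IL-10 and 11.77 to 12.11 with IL-4 plus IL-10. Without replicate 2 of IL-4 plus IL-10, that combination passed (0.23, adjusted p = 0.00397).

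**Figure D2:**
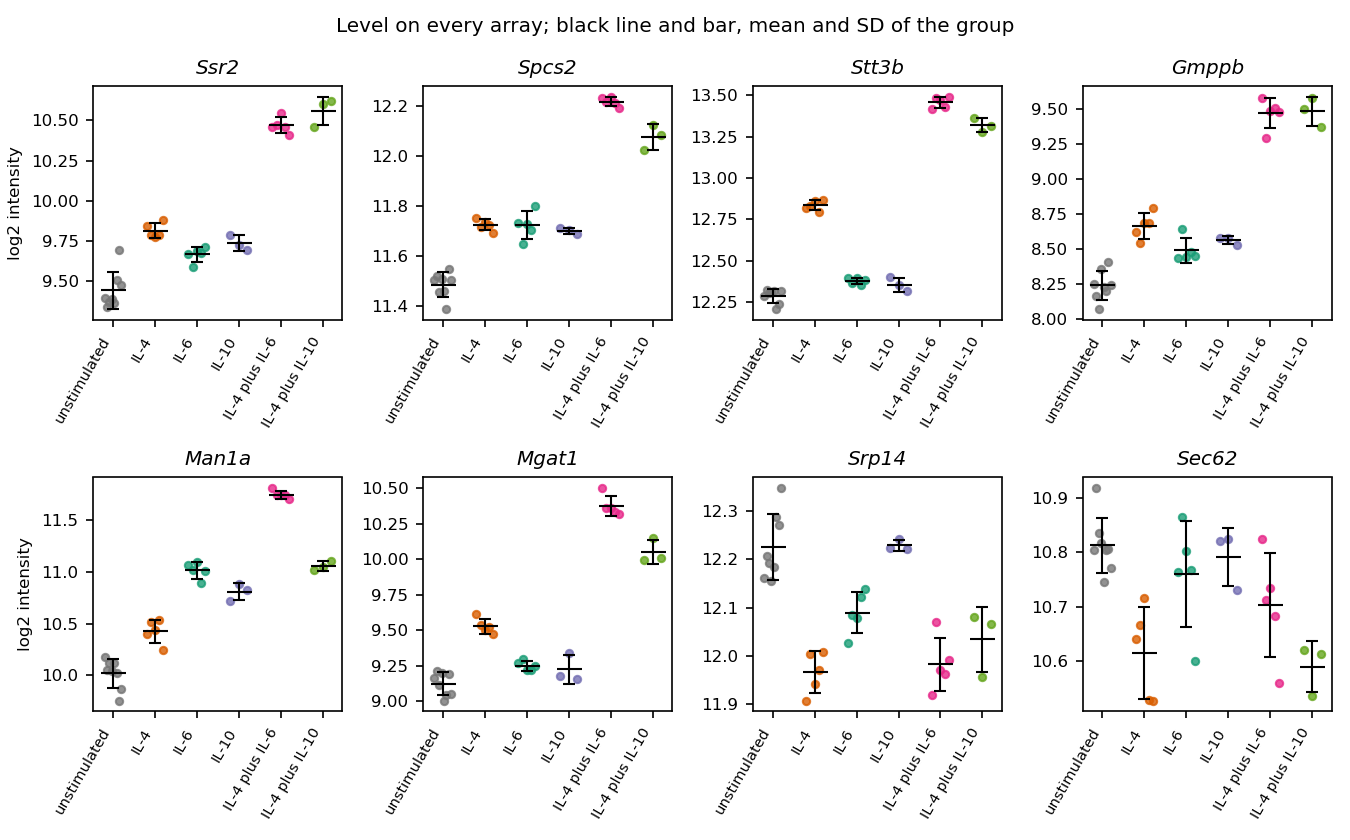
Log2 intensity of 8 genes on every array, by group. Points are arrays, the black line and bar are the group's mean and SD, and each panel has its own vertical range. The combinations lie highest for Ssr2, Spcs2, Stt3b, Gmppb and Mgat1, Man1a with IL-4 plus IL-10 overlaps IL-6 alone, and Srp14 lies lower with IL-4, IL-6 and the combinations than on any unstimulated array.

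The 4 largest differences with IL-4 plus IL-6 were those of N-glycosylation genes (Man1a, Mgat1, Gmppb and Stt3b). Of 16, 14 rose and 1 fell with IL-4 plus IL-6 (median 0.53), 15 rose with IL-4 plus IL-10 (median 0.50), 14 with IL-4 (median 0.16), 11 with IL-6 (median 0.13) and 7 with IL-10 (median 0.09). Called in either direction, these are 93.8%, 93.8%, 87.5%, 68.8% and 43.8% of the 16 genes in this order. Of all genes, 73.8%, 72.1%, 59.5%, 39.3% and 37.8% were called. All 6 OST subunits rose with both combinations (medians 0.61 and 0.53), where 35.0% and 38.1% of all genes rose. The shared subunits Rpn1, Rpn2 and Ddost, which hold the enzyme together and bind its substrates, rose by 0.65, 0.62 and 0.61 with IL-4 plus IL-6 and by 0.56, 0.53 and 0.48 with IL-4 plus IL-10. None of these groups overlapped the unstimulated arrays, and the share of all genes without overlap was not counted. Rpn2 ranged from 10.52 to 10.71 (median 10.59) unstimulated, 10.85 to 10.95 with IL-4, 10.81 to 10.97 with IL-6, 10.60 to 10.82 with IL-10, 11.10 to 11.37 with IL-4 plus IL-6 and 11.09 to 11.19 with IL-4 plus IL-10.

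Dad1, a small shared OST subunit, rose with IL-10 and did not pass the test with IL-4. It ranged from 11.11 to 11.63 (median 11.19) unstimulated, with replicate 7 far above the next array, and read 11.16, 11.06, 11.18, 11.09 and 11.09 with IL-4, 11.57, 11.67 and 11.53 with IL-10 and 11.69, 11.84 and 11.77 with IL-4 plus IL-10. IL-4 alone gave -0.13 (SE 0.0564, adjusted p = 0.0507) and IL-10 alone 0.35 (SE 0.0670, adjusted p = 1.53e-04). The IL-4 value passed without unstimulated replicate 1, 2, 3, 4 or 5 or IL-4 replicate 3 (adjusted p from 0.0265 to 0.0484). With IL-6 it gave 0.10 (adjusted p = 0.175), and 0.15 (adjusted p = 9.34e-04) without unstimulated replicate 7. Within the set, the IL-10 value was 0.20 (adjusted p = 0.237). Its IL-6 arrays read 11.30 to 11.36 and those with IL-4 plus IL-6 11.47 to 11.60. Adding IL-10 to IL-4 gave 0.66 (SE 0.0722, adjusted p = 2.33e-08).

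Stt3a and Stt3b are the alternative catalytic subunits of OST. The enzyme with Stt3a works on chains as they enter through the channel, and the one with Stt3b also glycosylates sites that were skipped. Stt3b ranged from 12.21 to 12.32 (median 12.31) unstimulated and read 12.82, 12.83, 12.86, 12.79 and 12.87 with IL-4, 12.40, 12.37, 12.39, 12.35 and 12.38 with IL-6 and 12.40, 12.35 and 12.32 with IL-10. Under IL-4 plus IL-6 it read 13.42, 13.48, 13.47, 13.43 and 13.49 and with IL-4 plus IL-10 13.36, 13.28 and 13.31. Another probe set of Stt3b gave 0.73 with IL-4, 1.76 with IL-4 plus IL-6 and 1.31 with IL-4 plus IL-10, all called. The IL-4 arrays lay above all unstimulated, IL-6 and IL-10 arrays, and both combinations lay above all IL-4 arrays. Against unstimulated cells the differences were 0.55 (SE 0.0266, adjusted p = 3.55e-16) with IL-4, 1.17 (SE 0.0266, adjusted p = 2.73e-24) or 2.25-fold with IL-4 plus IL-6 and 1.03 (SE 0.0316, adjusted p = 8.00e-21) or 2.04-fold with IL-4 plus IL-10.

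Stt3a changed less. It ranged from 11.88 to 12.06 (median 11.99) unstimulated and read 12.08, 12.14, 12.02, 12.12 and 12.09 with IL-4, 12.27, 12.46, 12.31, 12.30 and 12.34 with IL-4 plus IL-6 and 12.20, 11.99 and 12.15 with IL-4 plus IL-10. It rose by 0.35 (SE 0.0423, adjusted p = 2.30e-08) with IL-4 plus IL-6, and the smaller values of 0.11 (SE 0.0423, adjusted p = 0.0334) with IL-4 and 0.13 (SE 0.0502, adjusted p = 0.024) with IL-4 plus IL-10 lost their calls without single arrays (0.09 to 0.11). The IL-4 plus IL-10 call was also lost within the set (0.12, adjusted p = 0.238). Its IL-6 arrays read 12.003 to 12.10 and its IL-10 arrays 11.88 to 12.11, overlapping the unstimulated ones. Another probe set of Stt3a was called lower with IL-4 (-0.20), against 0.11 for the one used.

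The difference between the 2 paralogs was taken on each array and compared between groups with exact two-sided permutation tests, adjusted over 10 tests (2 pairs of paralogs in 5 comparisons). Stt3a minus Stt3b was -0.30 ± 0.08 (SD, n = 8) unstimulated, -0.75 ± 0.07 (n = 5) with IL-4, -1.12 ± 0.06 (n = 5) with IL-4 plus IL-6 and -1.21 ± 0.07 (n = 3) with IL-4 plus IL-10. The shift was -0.44 with IL-4 and -0.82 with IL-4 plus IL-6 (each exact permutation p = 0.00155, adjusted 0.00777). It was -0.90 with IL-4 plus IL-10 (exact permutation p = 0.0121, adjusted 0.0404). Each p is the smallest its design can give, and the arrays of these 3 groups did not overlap the unstimulated ones. Paired by replicate number, the shifts were -0.41, -0.79 and -0.86 and the adjusted exact permutation p were 0.312, 0.312 and 0.5, since 5 or 3 pairs cannot reach the threshold, and the numbers of the last group do not pair it with unstimulated arrays. Leaving out any 1 array, the IL-4 plus IL-10 shift was between -0.92 and -0.86 (adjusted exact permutation p from 0.0556 to 0.136), where even the smallest p the remaining arrays allow did not pass after adjustment over the 10 tests.

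With IL-6 and IL-10 alone, the shifts of Stt3a minus Stt3b were -0.01 and -0.07 and did not pass (adjusted exact permutation p = 0.751 and 0.337). For Sec11a minus Sec11c, no shift passed the test, with values from -0.08 with IL-4 plus IL-6 to 0.15 with IL-4 plus IL-10 and adjusted exact permutation p between 0.136 and 0.288. These values do not show that the 2 genes of the pair changed alike.

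**Figure D3:**
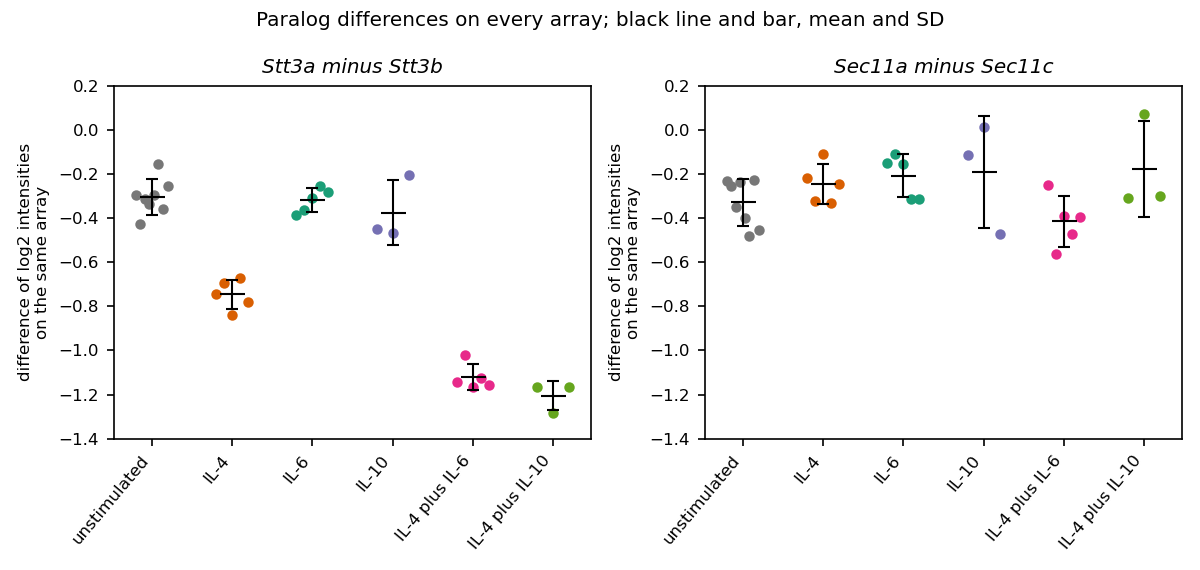
Difference of the log2 intensities of Stt3a and Stt3b (left) and of Sec11a and Sec11c (right) on every array, by group. Points are arrays, and the black line and bar are the mean and SD. Stt3a minus Stt3b lies near -0.30 unstimulated and near -1.12 and -1.21 with the combinations, while every group overlaps the unstimulated arrays for Sec11a minus Sec11c.

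Of the 3 genes that trim or replace glucose, 2 rose with each combination, where 35.0% and 38.1% of all genes rose. Called in either direction were 100% and 66.7% of the 3, beside 73.8% and 72.1% of all genes. Mogs, which removes the outermost glucose, rose by 0.19 with IL-4 plus IL-6 and by 0.35 with IL-4 plus IL-10. Ganab, the catalytic subunit of the enzyme that removes the next glucoses, rose by 0.38 and 0.17. Uggt1 puts a glucose back on badly folded glycoproteins. It ranged from 8.32 to 8.69 (median 8.46) unstimulated and read 8.66, 8.55, 8.64, 8.52 and 8.59 with IL-4, 8.67, 8.51, 8.67, 8.57 and 8.59 with IL-6 and 8.41, 8.48, 8.30, 8.38 and 8.30 with IL-4 plus IL-6. It was higher with IL-4 (0.11, SE 0.0447, adjusted p = 0.029) and with IL-6 (0.13, SE 0.0447, adjusted p = 0.0246) and lower with both together (-0.10, SE 0.0447, adjusted p = 0.0386). All 3 groups overlapped the unstimulated arrays, and each call was lost without single arrays (0.09 to 0.10 with IL-4, 0.10 to 0.11 with IL-6, -0.10 to -0.07 with both). Set against IL-4, IL-4 plus IL-6 was lower by 0.22 (SE 0.0496, adjusted p = 4.16e-04), and set against IL-6 by 0.23 (SE 0.0496, adjusted p = 1.85e-04), with no overlap of the arrays.

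Of the 4 genes that make the sugar tree or its donors, Gmppb had the largest differences with both combinations. Gmppb makes GDP-mannose, the donor of mannose. It ranged from 8.07 to 8.41 (median 8.24) unstimulated and read 8.62, 8.55, 8.69, 8.69 and 8.79 with IL-4, 8.44, 8.64, 8.44, 8.48 and 8.45 with IL-6 and 8.58, 8.58 and 8.53 with IL-10. In the presence of IL-4 plus IL-6 it read 9.58, 9.29, 9.49, 9.51 and 9.48 and with IL-4 plus IL-10 9.50, 9.58 and 9.37. Every cytokine group lay above every unstimulated array and both combinations above every single cytokine array. The differences were 1.23 (SE 0.0539, adjusted p = 9.26e-18) or 2.35-fold with IL-4 plus IL-6 and 1.25 (SE 0.0640, adjusted p = 8.82e-16) or 2.37-fold with IL-4 plus IL-10. Within the set, the IL-10 value was 0.28 (adjusted p = 0.0301).

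The other 3 precursor genes changed less. Alg2, which adds mannoses to the growing tree, rose by 0.69 with IL-4 plus IL-6 and 0.58 with IL-4 plus IL-10. Dpagt1, which starts the tree, rose by 0.30 with IL-4 plus IL-6. Its call with IL-4 (0.11) was lost with the replicate number as a block (0.04, adjusted p = 0.291), which leaves out unstimulated replicates 6 to 8. Alg5, which makes the lipid-linked glucose donor, gave 0.05 (SE 0.0366, adjusted p = 0.226) with IL-4 plus IL-6, the only one of the 34 genes that did not pass in that comparison, and rose by 0.23 (SE 0.0434, adjusted p = 4.01e-05) with IL-4 plus IL-10.

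The 3 Golgi genes rose with IL-4, IL-6 and both combinations, where 27.6%, 16.1%, 35.0% and 38.1% of all genes rose. Man1a trims mannoses in the Golgi. It ranged from 9.75 to 10.18 (median 10.05) unstimulated and read 10.40, 10.52, 10.43, 10.53 and 10.25 with IL-4, 11.07, 11.02, 11.09, 10.89 and 11.01 with IL-6 and 10.72, 10.89 and 10.83 with IL-10. Under IL-4 plus IL-6 it read 11.81, 11.74, 11.74, 11.74 and 11.71 and with IL-4 plus IL-10 11.02, 11.04 and 11.11. Every cytokine group lay above the unstimulated arrays, the IL-6 and IL-10 arrays lay above the IL-4 arrays, and the IL-4 plus IL-6 arrays lay above all others.

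Man1a had the largest difference of the 34 genes with IL-6, with IL-10 and with IL-4 plus IL-6. The differences were 0.40 (SE 0.0571, adjusted p = 7.21e-07) with IL-4, 0.996 (SE 0.0571, adjusted p = 4.91e-14) or 1.99-fold with IL-6 and 0.79 (SE 0.0678, adjusted p = 2.57e-10) with IL-10. In the presence of IL-4 plus IL-6 the difference was 1.73 (SE 0.0571, adjusted p = 1.49e-20) or 3.32-fold, and with IL-4 plus IL-10 1.04 (SE 0.0678, adjusted p = 1.60e-13). Within the set, IL-10 gave 0.93 (adjusted p = 1.29e-04) and IL-4 plus IL-10 gave 1.18 (adjusted p = 1.52e-06). IL-4 plus IL-10 was above IL-10 alone by 0.25 (SE 0.0818, adjusted p = 0.0104), a call lost without IL-10 replicate 1 (0.20, adjusted p = 0.0573). Another probe set of Man1a gave 2.26 with IL-4 plus IL-6 and 1.66 with IL-4 plus IL-10, both called.

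Mgat1, which starts hybrid and complex glycans, rose most where IL-4 was present. It ranged from 9.002 to 9.21 (median 9.14) unstimulated and read 9.61, 9.54, 9.50, 9.52 and 9.47 with IL-4, 9.27, 9.30, 9.22, 9.22 and 9.25 with IL-6 and 9.18, 9.34 and 9.15 with IL-10. Under IL-4 plus IL-6 it read 10.50, 10.36, 10.36, 10.33 and 10.32 and with IL-4 plus IL-10 9.996, 10.15 and 10.01. The 3 groups with IL-4 did not overlap the others or each other. The differences were 0.41 (SE 0.0418, adjusted p = 3.08e-09) with IL-4, 1.25 (SE 0.0418, adjusted p = 1.92e-20) with IL-4 plus IL-6 and 0.93 (SE 0.0497, adjusted p = 2.16e-15) with IL-4 plus IL-10. Mgat2, which adds the next branch, rose by 0.13, 0.20 and 0.27 with IL-4, IL-6 and IL-10 and by 0.45 and 0.34 with the combinations. Another probe set of Mgat2 gave 0.12, 0.13 and 0.21 with the single cytokines, none called. With the combinations it gave 0.39 and 0.40, both called.

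The interaction asks whether a combination exceeds the sum of its 2 single effects on the log2 scale, where 0 means that the effects add. For IL-4 with IL-6, 20 of the 34 genes had an interaction above 0 that passed the test and 2 had one below 0, where 21.4% and 18.6% of all genes did (39.9% in either direction). Within the set, 21 were above and 2 below, against 20.7% and 20.4% of all genes. For IL-4 with IL-10, 12 were above and 1 below (15.5% and 10.1% of all genes, 25.6% in either direction), and 8 in all without replicate 2 of IL-4 plus IL-10 in place of 13. This interaction also crosses the sets, and with a term for the set 13 were above and 0 below, where 13.6% and 10.1% of all genes were. Leaving out 1 array ended 5 calls for IL-4 with IL-6 (Sec61b, Rpn1, Ddost, Stt3a and Ganab, with values from 0.14 to 0.17 without it) and 6 for IL-4 with IL-10 (Ssr4, Spcs2, Spcs3, Dad1, Ganab and Mogs). The median interaction of the 34 genes was 0.17 and 0.15, and that of all genes 0.02 and 0.04.

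The interaction of IL-4 with IL-6 was 0.5 or more for 3 genes. It was 0.72 (SE 0.0625, adjusted p = 3.28e-10) for Mgat1, 0.55 (SE 0.0805, adjusted p = 2.93e-06) for Gmppb and 0.53 (SE 0.0397, adjusted p = 1.63e-11) for Stt3b, and the same genes had 0.42 (SE 0.0731, adjusted p = 8.65e-05), 0.50 (SE 0.0942, adjusted p = 2.75e-04) and 0.41 (SE 0.0464, adjusted p = 1.65e-07) for IL-4 with IL-10. For Stt3b the sum of the single effects was 0.64 and the combination gave 1.17. All 5 signal recognition genes had a called interaction of IL-4 with IL-6 above 0, where 21.4% of all genes did. It ran from 0.15 for Srp14 to 0.32 for Srp19. Among their other probe sets, 1 of Srprb (0.11) and 1 of Srp14 (0.17) were not called. The rest were called above 0 (0.20 to 0.34). The replicate number as a block leaves unstimulated replicates 6 to 8 out of the interaction with IL-6. With it, Srp14 (0.11, adjusted p = 0.0594) and Sec61b (0.10, adjusted p = 0.091) lost the call of this interaction. Sec62, Sec63, Ssr3 and Dpagt1 gained one (0.12 to 0.16, adjusted p from 0.00964 to 0.0292). For Sec63, another probe set had this interaction called lower (-0.33) and another higher (0.19).

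Interactions below 0 were found for Uggt1 with IL-6 (-0.35, SE 0.0668, adjusted p = 1.36e-04) and for Spcs3 with both. The Spcs3 values were -0.17 (SE 0.0482, adjusted p = 0.00547) with IL-6 and -0.17 (SE 0.0564, adjusted p = 0.0299) with IL-10. The Spcs3 call for IL-10 was lost without single arrays (-0.17 to -0.15). For Man1a the interaction was 0.33 (SE 0.0853, adjusted p = 0.0028) with IL-6 and -0.16 (SE 0.0997, adjusted p = 0.262) with IL-10, where the latter did not pass the test. The other Man1a probe set gave 0.76 with IL-6 and 0.21 with IL-10, both called.

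**Figure D4:**
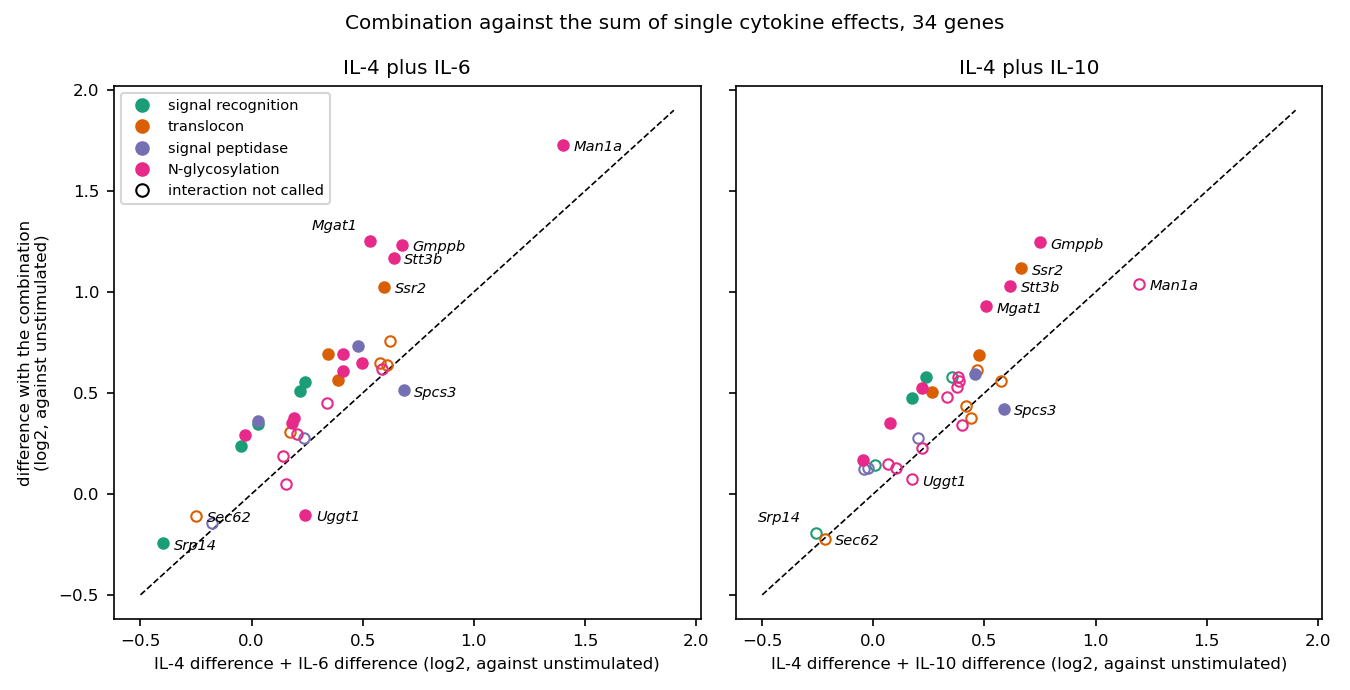
Difference from unstimulated cells with the combination (vertical, log2) against the sum of the differences with its single cytokines (horizontal, log2) for the 34 genes, coloured by role, for IL-4 plus IL-6 (left) and IL-4 plus IL-10 (right). The dashed line is equality, and filled points have a called interaction. Points lie above the line for 31 genes with IL-6 and 27 with IL-10.

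Other genes of the same pathway were followed as a list of 68, of which 48 were tested. In the presence of IL-4 plus IL-6, 32 rose and 4 fell (median 0.17), and with IL-4 plus IL-10, 33 rose and 4 fell (median 0.25). With IL-4, 19 rose and 8 fell, with IL-6 14 and 5, and with IL-10 14 and 4. In either direction, these single cytokine counts are 56.2%, 39.6% and 37.5% of the 48 genes, close to the 59.5%, 39.3% and 37.8% of all genes. With the combinations they are 75% and 77.1%, beside 73.8% and 72.1% of all genes, and those that rose are 66.7% and 68.8%, beside 35.0% and 38.1%. The 2 largest increases with IL-4 plus IL-6 were those of Fut8, which adds the core fucose, and Gfpt1, the entry enzyme of the hexosamine pathway that supplies N-acetylglucosamine.

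Fut8 passed the test with the combinations and with no single cytokine. It ranged from 8.36 to 8.64 (median 8.58) unstimulated and read 8.55, 8.40, 8.44, 8.45 and 8.42 with IL-4, 8.78, 8.65, 8.73, 8.62 and 8.53 with IL-6 and 8.57, 8.55 and 8.44 with IL-10. Under IL-4 plus IL-6 it read 10.33, 10.35, 10.24, 10.20 and 10.07 and with IL-4 plus IL-10 9.08, 9.05 and 8.96. The single cytokines overlapped the unstimulated arrays and did not pass the test (-0.08, 0.13 and -0.01), while the combinations gave 1.70 (SE 0.0517, adjusted p = 2.32e-21) or 3.25-fold and 0.50 (SE 0.0614, adjusted p = 5.34e-08). Gfpt1 likewise gave -0.08, 0.03 and 0.07 with the single cytokines, none called, and 1.15 (SE 0.0698, adjusted p = 1.85e-14) and 0.82 (SE 0.0829, adjusted p = 1.22e-09) with the combinations, from an unstimulated mean of 5.79, below the filter.

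The 2 largest decreases were those of Pmm1, a phosphomannomutase, and Mgat4b, which adds a further branch. Pmm1 fell by 0.53, 0.37 and 0.31 with IL-4, IL-6 and IL-10, by 0.43 (SE 0.0536, adjusted p = 4.63e-08) with IL-4 plus IL-6 and by 0.27 with IL-4 plus IL-10. Mgat4b rose by 0.22 with IL-4, fell by 0.34 and 0.40 with IL-6 and IL-10, and fell by 0.35 (SE 0.0473, adjusted p = 1.46e-07) and 0.15 with the combinations.

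Regulators and partners of this machinery were set beside it. Xbp1, which encodes a factor that drives ER genes once its RNA is spliced, rose by 0.21, 0.21 and 0.18 with IL-4, IL-6 and IL-10 and by 0.31 and 0.12 with the IL-6 and IL-10 combinations. Its level does not tell spliced from unspliced RNA. Atf6, another such factor, fell with IL-4 (-0.59), with IL-4 plus IL-6 (-0.82) and with IL-4 plus IL-10 (-0.57) and rose with IL-6 (0.24) and IL-10 (0.46). Hspa5, the main ER chaperone, rose in all 5 comparisons, by 0.25 with IL-4 to 0.60 with IL-4 plus IL-6. Ern1, the kinase that splices Xbp1 RNA, was below the filter and was not tested, with means of 6.41 unstimulated and 6.79 with IL-4 plus IL-6.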

How the data were processed

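The deposited values are log2 intensities of 22690 probe sets on 29 arrays, scanned with GCOS 1.4 and summarised with RMA by the authors, per the submitters' processing notes. RMA corrects background and scales arrays to one distribution, so shifts of all genes together are removed. The RMA version is not given in the sources used here. Gene names came from the platform's annotation (20393 probe sets with 1 gene, 691 with several, 1606 with none), and a gene took its probe set with the highest mean over all arrays. Genes with at least 3 arrays above log2 6.99, the median of all values, were tested (7154 genes).

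One limma model by group (limma 3.58.1, R 4.3.3) was fitted over all arrays with 23 residual degrees of freedom. Two-sided p-values were adjusted by the Benjamini-Hochberg method over all tested genes, and an adjusted p under 0.05 made a call. Every adjusted p in the text is from limma unless an exact permutation test is named. The fit was tested on simulated data. Paralog differences were compared with exact permutation tests over arrays.

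Members given by group were the 2 called ones per role with the largest difference in each comparison with unstimulated cells, the paralog pairs, those called in opposite directions by IL-4 and by IL-6 or IL-10, and those with a called interaction of at least 0.5. Those that fell and others where a result turned on them were added after their values were seen. From the 68 further pathway genes, the 2 largest called increases and the 2 largest decreases with IL-4 plus IL-6 were named. The members and lists were chosen with earlier results of these data known. Replicate numbers paired the arrays within the first set (30 pairs of arrays, correlation of deviations 0.415 to 0.70) and IL-10 with IL-4 plus IL-10 (3 pairs, 0.596 to 0.776), but not across sets (24 pairs, -0.685 to 0.518). The pairing comes from these values and not from the labels.

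Each result was recomputed after quantile normalization, after centring arrays on their medians, without a filter, with a stricter filter (75th percentile), with all probe sets of a gene averaged, with trend and robust moderation, with only the groups compared, a term for the set, a replicate block, an adjusted p under 0.01 and leaving out each array. Chosen after seeing the data were a random block with the set term, arrays of 1 set only, each probe set by itself and the short promoter motifs.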

Additional observations from a re-analysis of the deposited data

Results flagged for a closer look

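On 10 occasions 1 array stood far from the rest of its group, out of 136 groups of 34 genes that were examined, and chance gives about 1 in 20 groups. Unstimulated replicate 7 was highest for Ssr2 (9.70, others 9.34 to 9.51), Spcs1 (12.67, others 12.37 to 12.51) and Dad1 (11.63, others 11.11 to 11.30). Replicate 1 of IL-4 plus IL-6 was highest for Sec63 (10.15, others 9.95 to 9.99) and Mgat1 (10.50, others 10.32 to 10.36), and replicate 4 of that group for Mogs (9.34, others 9.17 to 9.21). With IL-6, replicate 2 was low for Ssr1 (11.64, others 11.75 to 11.77) and high for Gmppb (8.64, others 8.44 to 8.48), and replicate 4 was low for Dad1 (11.30, others 11.35 to 11.36). With IL-4, replicate 1 was low for Alg2 (8.21, others 8.37 to 8.43).

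The effect of IL-6 with IL-4 present differed from that without it for Mgat1 (interaction 0.72), Gmppb (0.55) and Stt3b (0.53), each by limma's test of the interaction itself.

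Probe sets shared with other genes were outside the comparisons. The one of Sec61g, Gm11575 and Gm10177 read 11.62 with IL-4 plus IL-6 and 11.62 with IL-4 plus IL-10, above the unstimulated range of 10.998 to 11.22. The one of Trf and Srprb read 12.27 with IL-4, above 11.27 to 11.98. The one of Gm10320 and Sec61b read 5.64 with IL-4 plus IL-10, above 5.04 to 5.39.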

How the results depend on the processing

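Apart from single probe sets, no called result changed direction under the alternatives run. Single probe sets of Stt3a and Sec63 had calls opposite to other probe sets of the gene. Other genes had probe sets of the other sign without a call. For Sec61a1 with IL-10, the probe set used gave 0.29, called higher, and others gave -0.26 and -0.19, not called. For the 60 single-gene results chosen by the rule for named genes, 628 of 657 values under alternatives kept their side of the threshold, 23 lost and 6 gained a call. These leave out the fits without 1 array, whose lost calls are named in the report. With arrays of 1 set only, 3 genes in place of 14 were called with IL-10. At an adjusted p under 0.01, 6 in place of 13 had a called interaction of IL-4 with IL-10. Leaving out each array gave 26 to 30 calls with IL-4, 19 to 24 with IL-6, 11 to 15 with IL-10, 31 to 33 with IL-4 plus IL-6, 29 to 33 with IL-4 plus IL-10, 18 to 23 interactions with IL-6 and 8 to 15 with IL-10, the 8 without replicate 2 of IL-4 plus IL-10. For Stt3a minus Stt3b the shift was -0.41 with IL-4, -0.79 with IL-4 plus IL-6 and -0.86 with IL-4 plus IL-10 under the replicate block (adjusted exact permutation p = 0.312, 0.312 and 0.5), and -0.92 to -0.86 with IL-4 plus IL-10 without 1 array, where even the smallest possible p did not pass after adjustment. Sec11a minus Sec11c moved to -0.19 with IL-4 plus IL-6 (adjusted exact permutation p = 0.0207) when all probe sets of a gene were averaged, where the other Sec11a probe set had a mean of 3.98. Beside the calls named in the report, the replicate block moved no count of calls by over 1.5 times, and between the 2 sets the numbers pair nothing. Apart from the fewer arrays or the stricter threshold, the cause of these moves was not tested.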
